A study of Mus musculus with 24 samples.

Results

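Colon from mice with Axin1 deleted in intestinal epithelium only (KO) was set against colon from wild-type (WT) mice, both taken at day 13 after dextran sulfate sodium (DSS), a sulfated sugar polymer that injures the colon lining and causes colitis. The 6 libraries, 3 from KO mice and 3 from WT mice, were chosen from the 24 of the series by their source labels alone, and every gene that passed a filter on low counts was tested, 18102 of 55487. Both groups were on the C57BL/6 strain and were killed at day 13 after DSS, so DSS exposure is common to both groups. The series also holds KO and WT colon from untreated mice and from day 7, with 3 libraries per group, which are used here for reference levels, and tumours, which are used only in an alternative fit. The sources used here give neither the dose and length of the DSS treatment nor any days on water after it, and they name no age, no sex and no Cre driver of the deletion. RNA came from washed colon tissue, which holds muscle, nerves, vessels, fibroblasts and immune cells in which Axin1 was not targeted. In such bulk tissue fewer cells of a type and less RNA per cell cannot be told apart.

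Axin1 is the scaffold on which the beta-catenin destruction complex assembles, with Apc, the kinases Gsk3b and Csnk1a1, and beta-catenin itself. In that complex beta-catenin is marked for breakdown, and when the complex is held off by a Wnt signal beta-catenin enters the nucleus and switches on Wnt target genes, among them Axin2, Rnf43 and Lgr5. In DSS colitis the epithelial lining is injured, neutrophils and monocytes enter the tissue under the direction of chemokines, interleukins of the interleukin-1 and interleukin-6 families act on epithelium and stroma, and matrix is cut and laid down again during repair.

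The 6 day 13 libraries held between 20.2 M and 27.7 M expected counts (median 24.2 M), within the 15.65 M to 28.1 M of the whole series, and 23110 to 24018 genes were detected per library. Levels are given in CPM, that is counts per 1 M counts of a library size scaled by the TMM method, fold changes are log2 values of KO over WT ± SE, n is 3 libraries per group throughout, and each adjusted p is from edgeR's quasi-likelihood test with Benjamini-Hochberg adjustment over all genes tested. Several libraries stood apart. Over the 500 most variable genes the 3 KO libraries lay 0.556 to 1.48 log2 units from each other, the 3 WT libraries 1.64 to 2.68, and KO from WT libraries 1.29 to 3.18. Markers of squamous epithelium, the lining of skin and anal canal rather than colon, summed to 1211, 5.21 and 4.10 CPM in KO replicates 1 to 3 and to 48.5, 15.7 and 5268 CPM in WT replicates 1 to 3, so that KO replicate 1 and WT replicate 3 were high. Xist, made from the inactive X chromosome, stood at 567.5 to 1068 CPM in the KO libraries and at 0.233 to 0.759 CPM in the WT libraries, whereas 4 Y-linked genes summed to 0.0465 CPM or less in KO and to 117 to 144 CPM in WT. The labels give no sex, and at day 13 the effect of genotype and that of sex cannot be told apart within these 6 libraries. The other groups were unbalanced as well: untreated, Y-linked expression was found in 3 of 3 KO and 2 of 3 WT libraries, and at day 7 in 1 of 3 KO and 0 of 3 WT libraries, and the rest had Xist.

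The level of Axin1 checks the genotype labels. The gene (ENSMUSG00000024182, plus strand, chr17:26138688-26195811 in GRCm38) had 17.1, 14.7 and 12.9 CPM in the KO libraries, against 55.3, 45.6 and 52.6 CPM in the WT libraries. The groups did not overlap, and the KO mean was 29.2% of the WT mean (exact two-sided permutation p = 0.1, the lowest value that this design allows). The change was -1.78 ± 0.12 (adjusted p = 2.74e-06). The values cover the whole gene, and the sources used here do not say which exons were removed. Of the 13 genes in the list of the destruction complex, Axin1 was the only one that passed, and the others, Apc, Gsk3b, Csnk1a1, Ctnnb1 and the tankyrase gene Tnks among them, did not (list median -0.05, against -0.02 over all genes tested).

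Between the genotypes 455 genes passed at day 13, which is 2.51% of those tested: 118 were higher in KO (0.652%) and 337 were lower (1.86%). The 2 directions differed in size. The median change was 0.93 among the higher genes, of which 52 differed at least 2-fold, and -2.38 among the lower genes, of which 305 differed at least 2-fold, 212 at least 4-fold and 58 at least 16-fold. Among the higher genes were iron, calcium and manganese handling genes of absorptive cells and the Wnt-induced ligase gene Rnf43. The lower genes included cytokines, chemokines, neutrophil and macrophage genes, matrix proteases and collagens. All 3 KO libraries lay above all 3 WT libraries in 117 of the 118 higher genes, against 12.1% of all genes tested, and below them in 325 of the 337 lower genes, against 12.2%, which the choice of genes that passed largely fixes. The WT libraries were not equally far from KO: WT replicate 2 was the one nearest to KO in 312 of the 337 lower genes and in 92 of the 118 higher genes. Over the lower genes the median ratio to the KO mean was 6.06 in WT replicate 1, 2.20 in WT replicate 2 and 6.52 in WT replicate 3.

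The number of calls depended strongly on single libraries. It was 14, 117 and 7 without KO replicate 1, 2 and 3, and 1, 1380 and 84 without WT replicate 1, 2 and 3. It was 4 without both libraries that were high in squamous markers and 1 with a covariate of Y-linked expression. Without WT replicate 1 the gene left was Axin1, so that every other call named below ended there, with adjusted p from 0.0523 to 0.230. The fold changes themselves moved less: the median ratio to the full fit over the 455 genes lay from 0.866 to 1.13. The lowest ratio was without both libraries high in squamous markers and the highest without WT replicate 2. With the Y-linked covariate the ratio was 1.02 while the SE grew 1.45 times. At day 13 Y-linked expression separates KO from WT in full. The covariate is thus set almost wholly by the groups of mixed sex, KO at day 7 and untreated WT. That fit cannot show fold changes free of sex. In the fit of the 18 colon libraries 3291 genes had an unadjusted p under 0.05 (18.2%).

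Set against untreated colon, the genes that were lower in KO stood at raised levels in WT colon and mostly not in KO colon. The WT mean at day 13 was above the range of the 6 untreated libraries in 327 of the 337 genes and within it in 10. The KO mean was within that range in 178, below it in 129 and above it in 30. Over all genes tested the KO mean was within it in 76.1% and the WT mean in 64.0%. By library, 41, 29 and 25 of the 337 genes were above the untreated range in KO replicates 1 to 3, against 323, 209 and 326 in WT replicates 1 to 3. Over all genes tested the same share was 18.6%, 13.3% and 13.4% in the KO libraries and 24.3%, 15.5% and 25.8% in the WT libraries. Below the untreated range were 53.1%, 28.8% and 37.7% of the 337 genes in KO replicates 1 to 3. Of all genes tested 20.7%, 14.4% and 14.6% were below it there, so KO did not simply stand at the untreated level. For the 118 genes that were higher in KO the picture was the other way round: the WT mean was below the untreated range in 83 and within it in 35, and the KO mean was within it in 55 and above it in 63. These day 13 positions describe genes that were chosen for a difference at day 13, and no test was made on them.

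**Figure D1:**
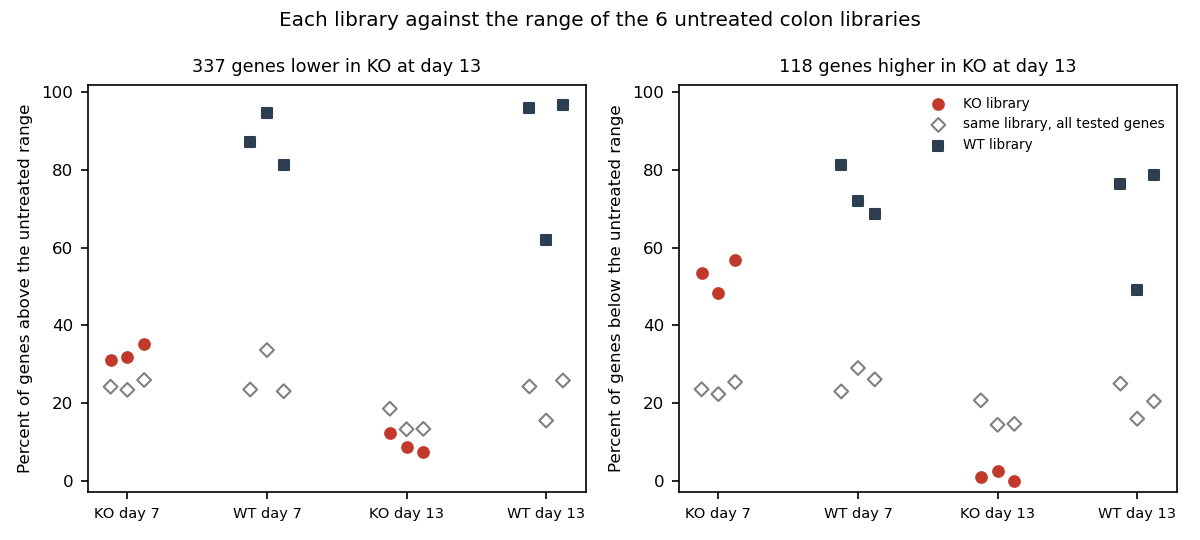
Share of the day 13 genes outside the range of the 6 untreated colon libraries, per library (percent of genes, y axis), for the 337 lower genes counted above that range (left) and the 118 higher genes counted below it (right). Filled points are single KO (circles) and WT (squares) libraries at day 7 and day 13, and open diamonds give the same library over all 18102 genes tested. In the left panel the KO libraries lie between 7.42% and 35.3% and the WT libraries between 62.0% and 96.7%.

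The day 7 libraries, which did not enter the choice of these genes except through the shared estimate of spread, were set against untreated colon in the same way. At day 7 105, 107 and 119 of the 337 genes were above the untreated range in the KO libraries, against 294, 319 and 274 in the WT libraries. These shares were 31.2%, 31.8% and 35.3% in KO and 87.2%, 94.7% and 81.3% in WT, beside 24.2%, 23.4% and 25.9% of all genes tested in KO and 23.5%, 33.6% and 23.0% in WT. The KO libraries were above their share of all genes at day 7. At day 13, where the lower genes were chosen for low KO values, the KO libraries gave 12.2%, 8.61% and 7.42%. The median change of the 337 genes was 0.03 in untreated colon, -1.67 at day 7 and -2.38 at day 13. Of these genes 1, Axin1, passed at day 7. For the 118 higher genes the median change was 0.05, 0.31 and 0.93, and none passed at day 7. The choice of genes enters the day 13 values alone, so a step from day 7 to day 13 cannot be read as a course over time. At day 7 63, 57 and 67 of the higher genes were below the untreated range in KO libraries and 96, 85 and 81 in WT libraries. These shares were 53.4%, 48.3% and 56.8% in KO and 81.4%, 72.0% and 68.6% in WT. Over all genes tested they were 23.6%, 22.3% and 25.4% in KO and 23.0%, 29.0% and 26.1% in WT. Both genotypes were thus above their share of all genes, WT more than KO. The comparisons at day 7 and in untreated colon had 1 call (0.00552%) and 2 calls (0.011%) over all genes.

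In the list of secreted signals of the interleukin-1 and interleukin-6 families, which also held Csf1, Csf3 and Tnf, 5 of 13 genes tested fell in KO and none rose. The list median was -2.55. The 5 were Il1a, Il1b, Il6, Il11 and Osm. Il1b, the interleukin that activated myeloid cells release (chr2:129364570-129371139), had 0.698, 0.971 and 0.373 CPM in KO libraries, against 52.4, 6.08 and 94.6 CPM in WT libraries. All WT libraries lay above all KO libraries, and the change was -6.23 ± 0.93 (adjusted p = 0.00835). Il11, which stromal cells make and which acts on epithelium, had 0.140, 0.309 and 0.336 CPM in KO, against 10.8, 2.62 and 8.63 CPM in WT (-4.77 ± 0.95, adjusted p = 0.0201). Il6 rested on few reads in KO, 1, 2 and 1 per library (0.0465, 0.0882 and 0.0373 CPM), against 76, 13 and 34 in WT (3.21, 0.523 and 1.59 CPM; -4.84 ± 1.01, adjusted p = 0.0226). Osm, which encodes oncostatin M, had 0.233, 0.0441 and 0.224 CPM in KO, against 2.49, 0.483 and 6.85 CPM in WT (-4.24 ± 0.95, adjusted p = 0.0313). The groups did not overlap in these 4 genes, whereas Il1a had 1.12, 0.265 and 0.298 CPM in KO, against 8.27, 0.443 and 22.4 CPM in WT, with WT replicate 2 below KO replicate 1 (-4.21 ± 1.03, adjusted p = 0.0442). WT replicate 2 was the lowest WT library in all 5. At day 7 Il1b had 1.99, 1.42 and 3.10 CPM in KO, against 22.5, 48.5 and 8.64 CPM in WT, and untreated colon had 0.765 ± 0.339 CPM in KO, against 0.305 ± 0.158 CPM in WT (SD).

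Chemokines fell in 9 of 23 genes tested, with none higher and a list median of -2.48. The 9 were Cxcl1 and Cxcl2, which draw neutrophils, Ccl2, Ccl7 and Ccl8, which draw monocytes, Ccl3 and Ccl4, and the interferon-induced Cxcl9 and Cxcl10. Cxcl2 (chr5:90903871-90905938) had 0.465, 0.0882 and 0.0746 CPM in KO, against 15.1, 2.45 and 58.5 CPM in WT (-6.93 ± 1.295, adjusted p = 0.0171). Ccl2 was nearly the same in the 3 KO libraries at 0.279, 0.265 and 0.261 CPM, against 16.2, 2.86 and 8.49 CPM in WT (-5.07 ± 0.80, adjusted p = 0.0107). Cxcl10 had 0.419, 0.794 and 0.821 CPM in KO, against 86.5, 5.19 and 7.13 CPM in WT, where replicate 1 was far above the other 2 (-5.58 ± 1.13, adjusted p = 0.0205). Ccl3 had 1 read over the 3 KO libraries, and in WT 40, 1 and 245 reads, so that WT replicate 2 was at the KO level. The other 14 chemokines did not pass, among them the stromal Cxcl12 at 26.6 ± 7.31 CPM in KO, against 58.3 ± 33.8 CPM in WT (-1.13 ± 0.39, adjusted p = 0.137).

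Of these ligand genes and of the matrix protease gene Mmp10, 4 promoters are shown because the genes fell by 4.84 to 6.93 and their windows hold motifs of factors that inflammatory signals activate. Each is the RefSeq window of 300 bases on GRCm38.p6, from 250 bases before to 50 after the start, written 5′ to 3′ on the strand of the gene, with motif matches in capitals. The windows are chr5:30012864-30013163 (plus strand) for Il6, chr5:90903649-90903948 (plus strand) for Cxcl2, chr5:92348840-92349139 (minus strand) for Cxcl10 and chr9:7502092-7502391 (plus strand) for Mmp10.
Il6: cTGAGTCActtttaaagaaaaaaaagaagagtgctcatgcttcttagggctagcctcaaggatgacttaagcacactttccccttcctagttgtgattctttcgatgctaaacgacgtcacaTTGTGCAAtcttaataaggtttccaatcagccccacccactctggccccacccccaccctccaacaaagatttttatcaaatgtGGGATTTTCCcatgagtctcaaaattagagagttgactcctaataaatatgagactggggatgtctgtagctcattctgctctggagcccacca
Cxcl2: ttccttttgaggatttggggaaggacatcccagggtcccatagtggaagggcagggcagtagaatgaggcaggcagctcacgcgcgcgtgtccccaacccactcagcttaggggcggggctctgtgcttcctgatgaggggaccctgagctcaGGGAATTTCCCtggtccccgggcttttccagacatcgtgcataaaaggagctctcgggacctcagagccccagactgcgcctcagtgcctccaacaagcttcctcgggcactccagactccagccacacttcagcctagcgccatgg
Cxcl10: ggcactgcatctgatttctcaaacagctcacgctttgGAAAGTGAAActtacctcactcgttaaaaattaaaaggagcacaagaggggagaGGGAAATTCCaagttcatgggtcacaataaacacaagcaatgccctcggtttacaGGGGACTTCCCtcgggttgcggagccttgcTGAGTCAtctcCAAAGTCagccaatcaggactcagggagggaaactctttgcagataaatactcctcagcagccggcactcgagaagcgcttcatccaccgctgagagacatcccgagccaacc
Mmp10: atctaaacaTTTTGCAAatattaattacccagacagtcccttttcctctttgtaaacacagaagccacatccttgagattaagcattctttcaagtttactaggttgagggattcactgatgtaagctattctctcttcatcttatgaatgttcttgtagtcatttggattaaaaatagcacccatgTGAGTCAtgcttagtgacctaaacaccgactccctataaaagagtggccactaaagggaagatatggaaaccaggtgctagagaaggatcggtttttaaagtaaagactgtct
In Il6 the capitals mark an AP-1 match that begins 249 bases before the start, a CEBP match at 128 and an NF-kappaB match at 44. In Cxcl2 they mark a pair of overlapping NF-kappaB matches at 97 and 96 bases. In Cxcl10 they mark an interferon-stimulated response element core at 213, NF-kappaB matches at 159, 104 and 103, of which the last pair overlap, AP-1 at 74 and an HNF4 site at 63. In Mmp10 they mark CEBP at 241 and AP-1 at 63.

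Windows were searched on both strands for AP-1 (TGANTCA), CEBP (TTGCNNAA), TCF/LEF (CTTTGAT), the HNF4 site (CAAAGTC), the interferon-stimulated response element core (GAAANNGAAA) and the NF-kappaB consensus, in the first window listed for each of 12412 genes tested. AP-1 was in 7.14% of the 84 windows of higher genes, 16.1% of the 255 windows of lower genes and 5.55% of all windows. CEBP was in 11.9%, 16.9% and 8.57%, the interferon element core in 2.38%, 9.80% and 3.21%, and the NF-kappaB consensus in 8.33%, 12.9% and 10.1%, in the same order. TCF/LEF, the motif of the factors that beta-catenin binds, was in 2.38%, 3.14% and 2.46%, and the HNF4 site in 7.14%, 7.45% and 4.03%. These shares describe letters in a window, and no test was made on them.

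Receptors for such signals were lower too. Of 13 cytokine receptor genes 7 fell and none rose (median -2.08): Il1rl1, Il18rap, Osmr, Csf2rb, Csf3r, Csf1r and Tnfrsf1b. Of these, Csf3r is counted again among the neutrophil markers below and Csf1r among the macrophage markers. Csf1r, the receptor that sustains macrophages, had 5.26, 12.8 and 9.10 CPM in KO, against 40.2, 14.7 and 41.0 CPM in WT (-1.82 ± 0.37, adjusted p = 0.0205). Il1rl1, the interleukin-33 receptor, had 0.977, 2.29 and 1.94 CPM in KO, against 63.2, 13.7 and 31.6 CPM in WT (-4.37 ± 0.85, adjusted p = 0.0183). Chemokine receptors fell in 4 of 14 (median -1.74), among them Ccr1 and Ccr2, carried by monocytes, and Cxcr2, carried by neutrophils. Ccr2 had 1.303, 3.22 and 2.46 CPM in KO, against 19.999, 6.04 and 25.4 CPM in WT (-2.87 ± 0.49, adjusted p = 0.0133). The KO and WT libraries did not overlap in these 3 examples, but the highest KO and lowest WT library of Csf1r were close.

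Neutrophil markers showed the largest median of the lists that held a call, -5.59, with 13 of 16 genes lower and none higher. S100a8, a subunit of the neutrophil protein calprotectin (chr3:90668978-90670035), had 3.12, 0.221 and 0.0373 CPM in KO, against 54.9, 11.7 and 89.9 CPM in WT (-5.57 ± 1.13, adjusted p = 0.0207). KO replicate 1, the KO library with squamous markers, was its highest KO library. Csf3r, the G-CSF receptor, had 1.02, 0.529 and 0.261 CPM in KO, against 17.7, 1.85 and 28.8 CPM in WT (-4.74 ± 0.90, adjusted p = 0.0172). Fpr2, a receptor for bacterial formyl peptides, had 0.0465, 0.0882 and 0.149 CPM in KO, against 5.36, 0.966 and 5.74 CPM in WT (-5.29 ± 0.88, adjusted p = 0.0111). WT replicate 3 was the highest WT library in 12 of the 13 genes that fell and WT replicate 2 the lowest in all 13. Retnlg, Hdc, Trem1, Cxcr2, Mmp8 and Mmp9 also fell. Of the 13 calls, 2 were left without KO replicate 1, 2 without KO replicate 2, 0 without KO replicate 3, 0 without WT replicate 1 and 2 without WT replicate 3.

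**Figure D2:**
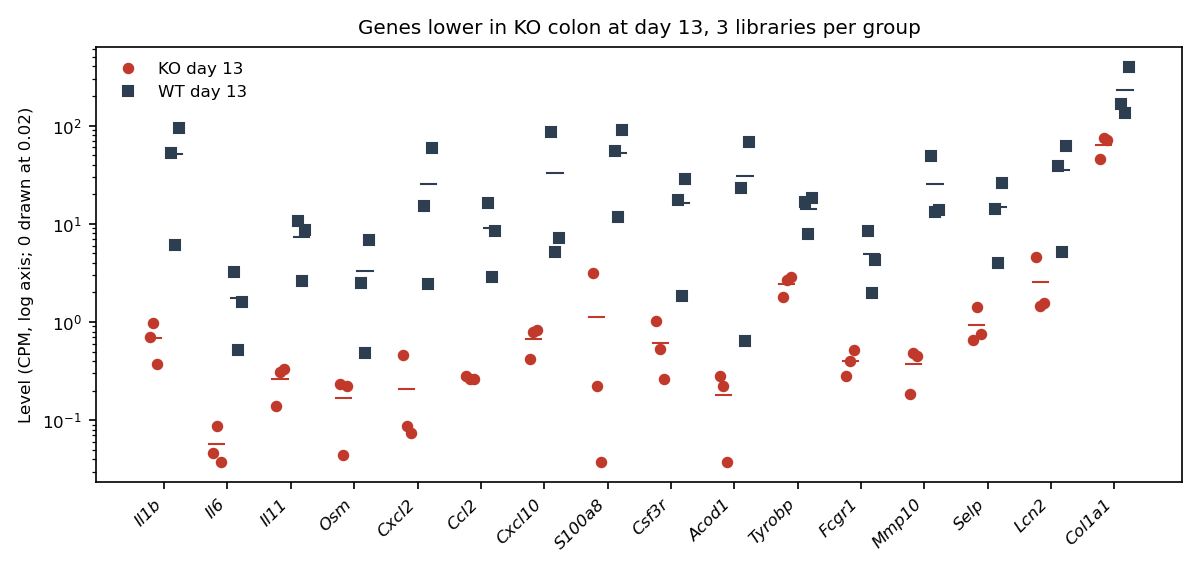
Levels of 16 genes that were lower in KO colon at day 13 (CPM, log axis, with 0 drawn at 0.02). Red circles are the 3 KO libraries, dark squares the 3 WT libraries, and short lines the group means. In each gene shown the 3 KO libraries lie below the 3 WT libraries, and WT spans a wider range than KO in most of them, for example 0.644 to 67.7 CPM in Acod1.

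Monocyte and macrophage markers fell in 13 of 17 genes and none rose, with smaller changes (median -1.97) than the neutrophil genes. Tyrobp, the adaptor of many myeloid receptors (chr7:30413760-30417585), had 1.82, 2.65 and 2.87 CPM in KO, against 16.6, 7.85 and 18.2 CPM in WT (-2.53 ± 0.32, adjusted p = 0.00748). Its untreated level was 5.04 ± 0.638 CPM in KO and 5.07 ± 0.0915 CPM in WT (SD), so that KO at day 13 lay below the untreated level and WT above it. Fcgr1, the high-affinity IgG receptor, had 0.279, 0.397 and 0.522 CPM in KO, against 8.35, 1.97 and 4.29 CPM in WT (-3.58 ± 0.51, adjusted p = 0.00835). The complement gene C1qa, made by resident macrophages, had 10.9 ± 2.99 CPM in KO, against 36.7 ± 13.97 CPM in WT (SD; -1.75 ± 0.29, adjusted p = 0.0107). Adgre1, which encodes F4/80, fell by 2.18 ± 0.36 on the log2 scale (adjusted p = 0.0111). Further myeloid genes among those with the smallest p were Fcer1g at -3.01 ± 0.43, Clec4a3 at -3.56 ± 0.47, Clec7a at -2.58 ± 0.38 and Aoah, which inactivates lipopolysaccharide, at -2.94 ± 0.42 (adjusted p = 0.00835 for each). Of the 13 marker calls, 11 were left without KO replicate 2, 6 without WT replicate 3, 1 each without KO replicate 1 and KO replicate 3, and 0 without WT replicate 1.

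Effector genes of activated macrophages fell in 7 of 18 (median -2.10). Acod1, whose enzyme makes itaconate, had 0.279, 0.221 and 0.0373 CPM in KO, against 22.9, 0.644 and 67.7 CPM in WT (-7.42 ± 1.34, adjusted p = 0.0152). Clec5a, a receptor of myeloid cells, had 0.279, 0.662 and 0.597 CPM in KO, against 8.31, 1.49 and 3.78 CPM in WT (-3.12 ± 0.60, adjusted p = 0.0177). Nos2, which makes nitric oxide, averaged 15.7 ± 0.559 CPM in KO, against 284 ± 234 CPM in WT (SD; -4.18 ± 0.99, adjusted p = 0.0398). The arginase gene Arg1 had 8727 reads in WT replicate 3 and 1129 in KO replicate 1, the 2 libraries with squamous markers, and at most 77 in the other day 13 libraries, and it did not pass (-2.96 ± 1.78, adjusted p = 0.409). Rel, a subunit of NF-kappaB found in lymphoid and myeloid cells, had 9.77, 13.01 and 11.3 CPM in KO, against 41.2, 23.1 and 35.3 CPM in WT (-1.55 ± 0.23, adjusted p = 0.00835).

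Lymphocyte lists held few calls, although all 13 T cell markers and all 14 B cell and plasma cell markers had a negative value. Of the 13 T cell markers (median -1.37) 1 fell, the costimulatory receptor gene Icos, at 0.512, 0.838 and 0.485 CPM in KO, against 3.08, 1.05 and 4.29 CPM in WT (-2.19 ± 0.52, adjusted p = 0.0394). None of 14 B cell and plasma cell markers and none of 9 genes of the interleukin-17 and interleukin-22 axis passed (medians -1.66 and -0.38). Il17a had 0, 1 and 0 reads in the KO libraries at 0, 0.0441 and 0 CPM and 1.14, 0.362 and 0.653 CPM in WT, with an adjusted p of 0.0742. Genes that interferon-gamma induces fell in 4 of 18 (median -1.85): Cxcl9, Cxcl10, Gbp4 and Gbp5, the last pair being guanylate-binding proteins that attack intracellular microbes. Gbp4 had 1.68, 3.44 and 2.76 CPM in KO, against 69.9, 7.28 and 17.9 CPM in WT (-3.59 ± 0.67, adjusted p = 0.0171). The list rested on another WT library than the neutrophil genes did: WT replicate 1 was the highest WT library in 16 of its 18 genes, whereas WT replicate 3 was highest in 15 of the 16 neutrophil genes. Of 15 genes that respond to type I interferon none passed (median -0.79).

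Proteases and their regulators fell in 9 of 18 genes (median -2.62): Mmp3, Mmp8, Mmp9, Mmp10, Mmp13, Timp1, Adamts4, Plau and Plaur. Mmp10, a stromelysin of wound-edge epithelium and macrophages (chr9:7502352-7510240), had 0.186, 0.485 and 0.448 CPM in KO, against 48.7, 13.1 and 13.7 CPM in WT (-6.04 ± 1.03, adjusted p = 0.0133). Plau, the urokinase gene, had 4.93, 5.12 and 3.40 CPM in KO, against 32.6, 15.1 and 21.1 CPM in WT, and its receptor Plaur 2.75, 4.01 and 2.39 CPM in KO, against 27.2, 10.9 and 23.4 CPM in WT. Both fell, by 2.36 ± 0.42 and 2.75 ± 0.48 on the log2 scale (adjusted p = 0.0152 and 0.0133). The list held the inhibitor Timp1 as well, which also fell (-2.49 ± 0.60, adjusted p = 0.0416).

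Fibroblast and matrix genes fell in 7 of 22 (median -1.36): the collagen genes Col1a1, Col1a2, Col5a1, Col5a2 and Col6a3, and the crosslinking enzymes Lox and Loxl2. Col1a1 (chr11:94936224-94953042) had 45.6, 74.6 and 72.1 CPM in KO, against 168, 134 and 397 CPM in WT (-1.86 ± 0.39, adjusted p = 0.0230). Untreated colon had 91.2 ± 9.24 CPM in KO, against 137 ± 31.3 CPM in WT (SD), so that KO lay below its own untreated level at day 13. Loxl2 had 9.31, 19.5 and 20.1 CPM in KO, against 79.7, 39.8 and 94.3 CPM in WT (-2.13 ± 0.37, adjusted p = 0.0141). WT replicate 3 was the highest WT library in all 7 genes that fell and in 21 of the 22 tested. Of the 7 calls 2 were left without KO replicate 2 and none without any other single day 13 library except WT replicate 2, where 14 passed, and the list median without WT replicate 3 was -0.89. In the vessel list 3 of 12 genes fell (median -1.19), all of them adhesion molecules that inflamed endothelium uses to catch leukocytes. Selp, P-selectin, had 0.652, 1.41 and 0.746 CPM in KO, against 14.1, 4.02 and 25.9 CPM in WT (-3.96 ± 0.87, adjusted p = 0.0284). Icam1 had 4.002, 6.13 and 5.30 CPM in KO, against 43.8, 7.89 and 31.1 CPM in WT (-2.42 ± 0.47, adjusted p = 0.0186). Sele had 2 reads over the 3 KO libraries, against 19, 8 and 56 reads in WT. Pecam1, carried by endothelium at rest, did not pass, at 19.3 ± 5.98 CPM in KO, against 40.2 ± 22.8 CPM in WT (SD; -1.06 ± 0.45, adjusted p = 0.225). No smooth muscle gene of 10 and no neuron or glia gene of 13 passed (medians 0.59 and 0.10), and none of 5 hemoglobin genes, 8 squamous genes, 4 fat genes or 5 genes of exocrine pancreas and small intestine did (medians 1.15, -2.47, -0.02 and -1.22). The squamous median was 3.61 without WT replicate 3.

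The epithelium answers injury with antimicrobial and acute phase proteins, and 6 of 17 such genes fell while none rose (median -1.84): Lcn2, Saa3, Slpi, Nos2, Cp and Hp. Lcn2, whose protein withholds iron from bacteria by binding their siderophores, had 4.61, 1.46 and 1.57 CPM in KO, against 39.1, 5.19 and 61.6 CPM in WT (-3.80 ± 0.73, adjusted p = 0.0175). Saa3 had 0.745, 1.32 and 1.34 CPM in KO, against 92.3, 19.6 and 126 CPM in WT (-6.11 ± 1.41, adjusted p = 0.0351). Cp, the copper protein ceruloplasmin, had 2.699, 5.07 and 4.59 CPM in KO, against 42.3, 12.03 and 37.4 CPM in WT (-2.89 ± 0.54, adjusted p = 0.0171). Several of these genes are also made by neutrophils or macrophages, whose markers fell as well, and the part of those cells in these changes was not tested. Reg3b and Reg3g, lectins of the epithelium itself, did not pass (-2.90 ± 2.57 and -2.56 ± 2.25, adjusted p = 0.601 and 0.596). Nor did Saa1, at 1959, 1564 and 2164 CPM in KO and 1389, 1383 and 1129 CPM in WT, where KO was the higher group without overlap (0.54 ± 0.34, adjusted p = 0.44).

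**Figure D3:**
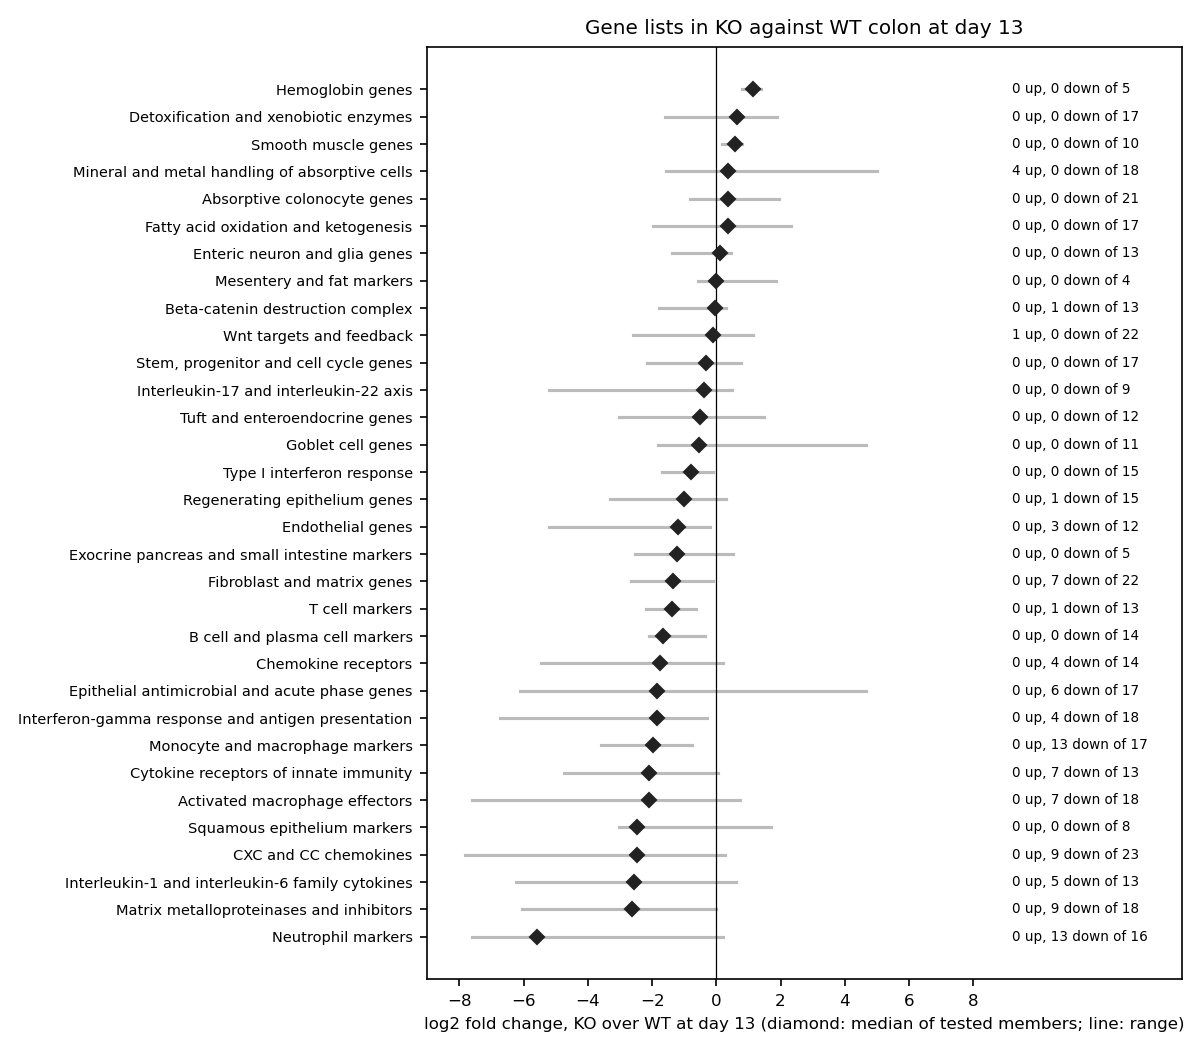
Median (diamond) and range (line) of the log2 fold change of KO over WT at day 13 for 32 gene lists, ordered by their median, with the number of genes that passed in each direction out of those tested at the right. The Y-linked and X inactivation lists are left out. Neutrophil markers lie lowest among all lists shown at -5.59 with 13 of 16 lower, and the mineral and metal list is the one with more than 1 gene higher, 4 of 18.

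Genes of the absorptive lining went the other way in part. Of 18 mineral and metal handling genes 4 rose and none fell (median 0.37). Slc11a2, which brings iron into the enterocyte (chr15:100387898-100425072), had 305, 114 and 213 CPM in KO, against 49.7, 58.9 and 48.4 CPM in WT (2.01 ± 0.40, adjusted p = 0.0201). Slc40a1, ferroportin, which lets iron out on the blood side, had 832, 458 and 719 CPM in KO, against 213, 319 and 221 CPM in WT (1.42 ± 0.28, adjusted p = 0.0201). S100g, the vitamin D-dependent calcium carrier calbindin-D9k, had 199.6, 104 and 196 CPM in KO, against 8.19, 4.06 and 3.45 CPM in WT (4.99 ± 1.15, adjusted p = 0.0348). Slc30a10, a manganese exporter, had 10.5, 81.7 and 80.4 CPM in KO, against 0.633, 3.46 and 5.22 CPM in WT (4.22 ± 0.87, adjusted p = 0.0217), with KO replicate 1 below the other KO libraries. The groups did not overlap in any of the 4. No gene of the list passed without WT replicate 1, without WT replicate 3 or without KO replicate 3. Without KO replicate 1 the list held 1 higher gene, and without KO replicate 2 it held 2. S100g passed in 0 of the 6 fits that each left out 1 day 13 library. The transferrin receptor gene Tfrc, which iron shortage raises, had 183 ± 26.1 CPM in KO, against 195 ± 60.7 CPM in WT (SD) and did not pass (-0.09 ± 0.34, adjusted p = 0.92).

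No difference in course among the 4 genes was tested. Slc11a2 was at 128 ± 27.0 CPM in KO and 50.5 ± 5.17 CPM in WT in untreated colon (SD), where its change of 1.34 was already positive, and in WT it was at 42.5 to 67.5 CPM at day 7 and 48.4 to 58.9 CPM at day 13. S100g was at 160.4 ± 85.6 CPM in untreated KO and 40.7 ± 30.8 CPM in untreated WT, and Slc30a10 at 142 ± 39.4 CPM in untreated KO and 48.5 ± 35.6 CPM in untreated WT (SD). For S100g and Slc30a10 the WT level at day 13 was below the untreated WT mean, while KO stood near the untreated KO mean for S100g and below it for Slc30a10. Slc40a1 was at 550.2 ± 114 CPM in untreated KO and 352 ± 68.7 CPM in untreated WT (SD). None of the 4 passed in untreated colon or at day 7.

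**Figure D4:**
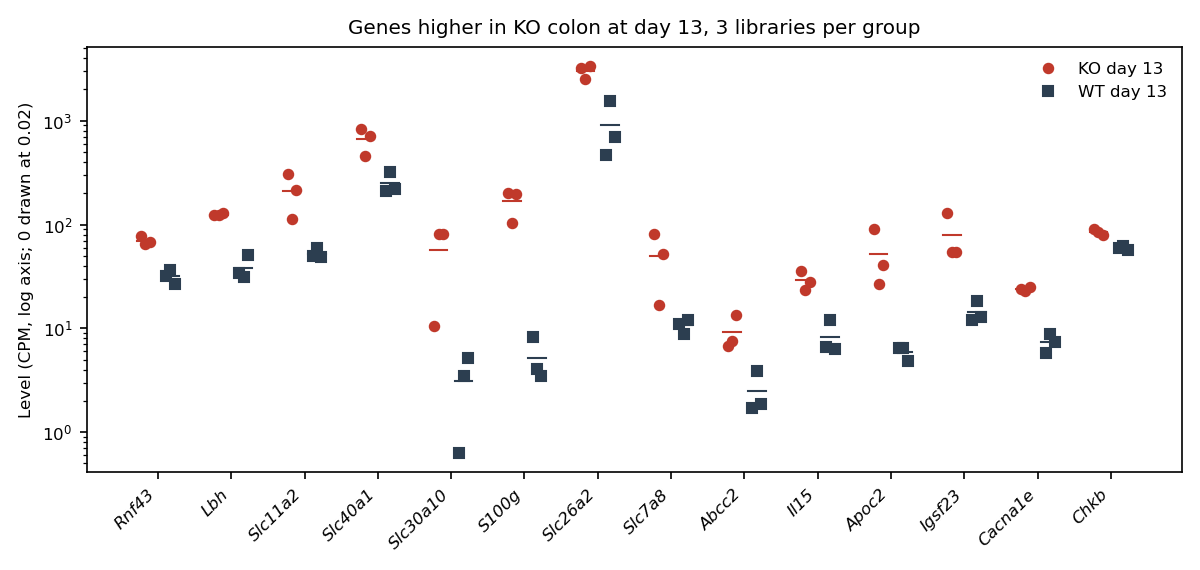
Levels of 14 genes that were higher in KO colon at day 13 (CPM, log axis). Red circles are the 3 KO libraries, dark squares the 3 WT libraries, and short lines the group means. All KO libraries lie above all WT libraries in each gene shown, by a wide margin in S100g (104 to 199.6 against 3.45 to 8.19 CPM) and by a narrow one in Chkb (80.0 to 91.1 against 56.9 to 62.5 CPM).

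Other epithelial programmes gave no or single calls. None of 21 absorptive colonocyte genes passed, although 14 had a positive value (median 0.36), and the closest was the chloride exchanger gene Slc26a3 at 1388, 1746 and 1549.8 CPM in KO, against 337, 734 and 486 CPM in WT (1.59 ± 0.45, adjusted p = 0.0758). Its relative Slc26a2, a sulfate transporter of colonocytes that was no member of that list, rose, with 3214, 2526 and 3343 CPM in KO, against 464, 1565 and 699 CPM in WT (1.74 ± 0.43, adjusted p = 0.0442). Slc7a8, an amino acid transporter, Abcc2, an export pump for conjugated compounds, and Apoc2, an apolipoprotein, rose as well, by 2.22 ± 0.49, 1.89 ± 0.42 and 3.15 ± 0.51 (adjusted p = 0.0295, 0.0293 and 0.0107). None of 17 detoxification genes passed (median 0.64), nor did any of 17 fatty acid oxidation genes (median 0.36), 11 goblet cell genes (median -0.54), 12 tuft and enteroendocrine genes (median -0.51) or 17 stem and cell cycle genes (median -0.33). With DESeq2 3 detoxification genes and 2 colonocyte genes were higher in KO, 1 goblet cell gene and 2 tuft and enteroendocrine genes were lower, and no gene of the fatty acid oxidation list or of the stem and cell cycle list passed. Muc2, the main mucin of goblet cells, had 1926, 1779 and 1973 CPM in KO, against 3904, 3334 and 3614 CPM in WT, with no overlap but no call (-0.93 ± 0.65, adjusted p = 0.487), and in untreated colon its SD was 5141 CPM around a mean of 4245 CPM in KO. Of 15 genes of regenerating epithelium 1 fell, the keratin gene Krt7, at 100.2, 81.0 and 91.0 CPM in KO, against 195, 149 and 383 CPM in WT (-1.42 ± 0.29, adjusted p = 0.0210).

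Il15, a cytokine that sustains intraepithelial lymphocytes, rose. It had 35.7, 23.4 and 27.7 CPM in KO, against 6.62, 12.03 and 6.39 CPM in WT (1.79 ± 0.30, adjusted p = 0.0111). At day 7 it was at 9.30, 10.2 and 8.06 CPM in KO and 6.77, 5.27 and 7.95 CPM in WT, and untreated colon had 21.2 ± 2.16 CPM in KO, against 25.6 ± 9.61 CPM in WT (SD). KO at day 13 was therefore near the untreated level, and WT near its day 7 level. Lbh, which encodes a transcriptional cofactor, was close to the same level in the 3 KO libraries, at 124, 122 and 128 CPM, against 34.3, 30.9 and 50.5 CPM in WT (1.69 ± 0.29, adjusted p = 0.0133). For Lbh the untreated levels were 44.7 ± 7.80 CPM in KO and 45.8 ± 2.67 CPM in WT (SD), so that KO was above and WT near the untreated level.

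Of 22 Wnt target and feedback genes 1 passed, Rnf43, and 8 values were positive and 14 negative (median -0.10). With DESeq2, and likewise without WT replicate 2, 2 were higher and 4 were lower in KO. Rnf43 encodes a ligase that takes Wnt receptors off the cell surface. It had 77.3, 64.5 and 67.4 CPM in KO, against 32.1, 36.5 and 27.0 CPM in WT (1.13 ± 0.19, adjusted p = 0.0111). Untreated colon was at 59.3, 62.2 and 42.3 CPM in KO and 51.8, 53.5 and 47.9 CPM in WT, so the day 13 values lay above all 6 untreated libraries in KO and below all 6 in WT. Axin2, a feedback paralogue of Axin1, had 30.8, 24.04 and 22.2 CPM in KO, against 17.2, 19.6 and 12.03 CPM in WT, with no overlap, and did not pass (0.66 ± 0.18, adjusted p = 0.0656). Both genes were also higher in KO at day 7 without overlap, though neither passed there. Rnf43 then had 59.6, 71.5 and 67.2 CPM in KO, against 29.0, 47.4 and 48.8 CPM in WT. Axin2 then had 35.6, 31.8 and 38.6 CPM in KO, against 16.5, 15.2 and 19.7 CPM in WT. The median of the whole list at day 7 was -0.36. Lgr5, the stem cell receptor for R-spondins, overlapped between the groups at 2.65, 5.07 and 5.78 CPM in KO, against 2.24, 4.83 and 1.12 CPM in WT (0.72 ± 0.70, adjusted p = 0.638). The cell cycle gene Ccnd1 was at 50.7, 51.2 and 57.5 CPM in KO, against 109, 66.8 and 94.2 CPM in WT (-0.76 ± 0.22, adjusted p = 0.0864). Of 15 alternatives Rnf43 passed in 8 and Axin2 in 3, both higher in KO, and Ccnd1 in 3, lower in KO. Rnf43 passed in 2 of the 6 that each left out 1 day 13 library, and not with the Y-linked covariate. Myc was at 23.4, 23.7 and 35.0 CPM in KO, against 31.0, 26.6 and 31.0 CPM in WT (-0.11 ± 0.26, adjusted p = 0.873).

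**Figure D5:**
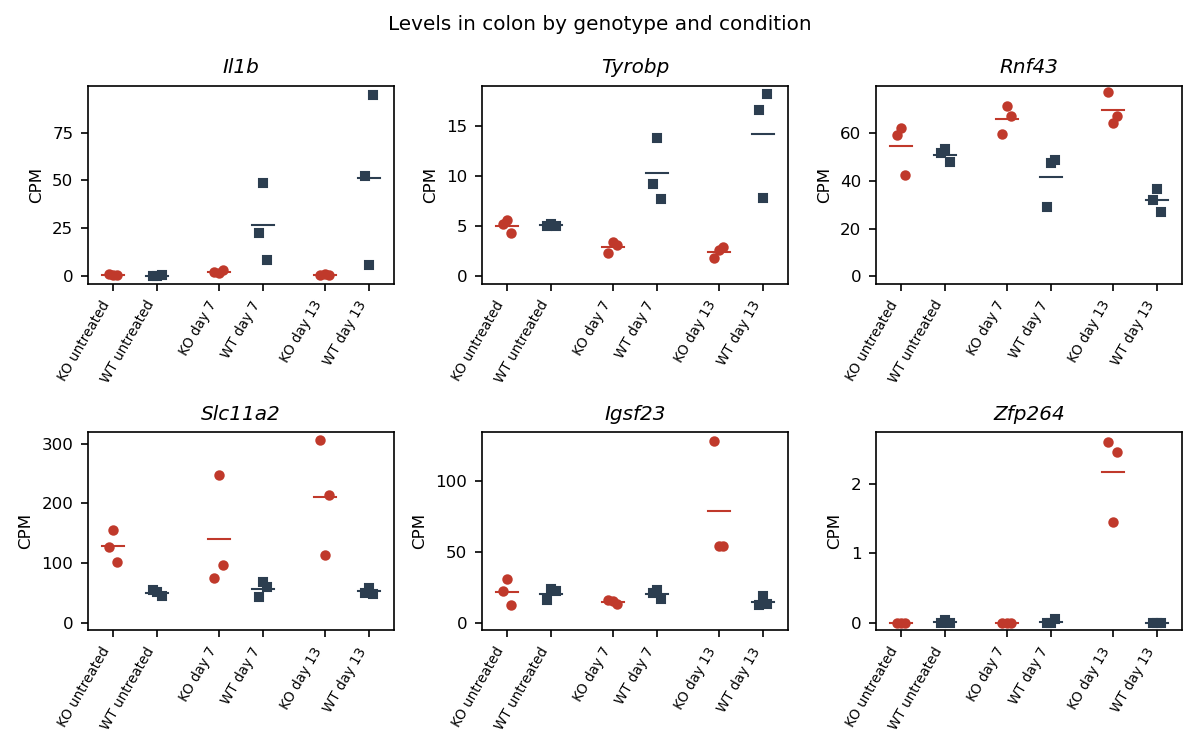
Levels of 6 genes in colon of KO (red circles) and WT (dark squares) mice, untreated, at day 7 and at day 13 (CPM, linear axes, 1 panel per gene with its own scale). Points are libraries and short lines group means. Il1b and Tyrobp rise above untreated levels in WT, Rnf43 at day 13 lies above them in KO and below them in WT, Slc11a2 is higher in KO in untreated colon too (128 ± 27.0 against 50.5 ± 5.17 CPM, SD), Igsf23 stands apart in KO at day 13, and Zfp264 is found in KO at day 13 and at 0.0491 CPM or less in the other 15 colon libraries.

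Some genes stood out for their position or their pattern over the groups. Zfp264, a transcribed pseudogene (chr7:6977246-6991087), had 2.61, 1.46 and 2.46 CPM in the KO libraries at day 13 and no read in the 3 WT libraries, so that it was at least 50.7-fold higher in KO, with 3 counts over the WT group as the floor. It had no read in 13 of 15 colon libraries (WT at day 13 and both genotypes untreated and at day 7), and none in the 6 tumour libraries. Igsf23, an immunoglobulin superfamily gene (chr7:19937305-19950756), had 128, 54.3 and 54.0 CPM in KO at day 13, against 12.1, 18.5 and 12.8 CPM in WT (2.44 ± 0.36, adjusted p = 0.00835), while its values in the other 15 colon libraries were at most 30.5 CPM. Of 214 genes tested in the first 20 Mb of chromosome 7, 5 were higher in KO (2.34%, against 0.652% of all genes): Zfp264, Gm45104, Ppp1r37, Apoc2 and Igsf23. The stretch of chromosome 6 from 40 to 60 Mb held 7 of 152 (4.61%), among them Hoxa5, Hoxa10 and Hoxa13. These stretches were picked after the values were seen, and no test was made on them. Of the 11 genes of the Hoxa cluster 3 rose (median 0.54), in a list that was also added after its values were seen. On chromosome X 5 genes were higher and 5 lower of 555 tested (0.901% each, against 0.652% and 1.86% of all genes). Kdm6a, which escapes X inactivation, was among the higher, at 52.0, 60.6 and 65.1 CPM in KO, against 31.5, 35.3 and 30.8 CPM in WT (0.86 ± 0.19, adjusted p = 0.0260). All 5 genes in the list of X inactivation and escape, Xist included, had a positive value, and 4 did not overlap between the groups, against 12.1% of all genes. Only the KO libraries carried Xist and only the WT libraries Y-linked expression, so genotype and sex cannot be told apart here.

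A list of sterol and fatty acid genes and a list of clock genes were added after the values were seen. Their counts describe values already known, and no test was made on them. Over all genes tested 0.652% were higher in KO and 1.86% lower. Of 23 genes of sterol and fatty acid synthesis and uptake, 6 fell and none rose (median -1.01), and 22 had a negative value. Fasn, fatty acid synthase, had 138, 134 and 159 CPM in KO, against 306, 334 and 219.9 CPM in WT (-0.996 ± 0.197, adjusted p = 0.0195). WT replicate 2 was the highest WT library in 21 of the 23, and at day 7 the list median was 0.39, with Fasn at 426 ± 14.2 CPM in KO, against 277 ± 64.5 CPM in WT (SD). Scd1, Fdft1 and Lrp8 were among the other genes that fell. Fdft1 passed in 0 of the 6 fits that each left out 1 day 13 library. Of 18 clock genes 2 rose (median 0.26): Nr1d1, the nuclear receptor that represses clock genes, had 202, 197 and 214 CPM in KO, against 56.8, 115 and 78.4 CPM in WT (1.29 ± 0.26, adjusted p = 0.0201), and Noct 140.3, 94.5 and 109 CPM in KO, against 65.4, 69.0 and 61.4 CPM in WT (0.81 ± 0.17, adjusted p = 0.0207).

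Whether the genotype difference at day 13 itself differed from that at the other times was tested as an interaction. Against untreated colon 2 of 18102 genes passed (0.011%), Gzmb and Gm45104, and against day 7 none did (0.0%), with a smallest adjusted p of 0.0908 and 2125 genes at an unadjusted p under 0.05. DESeq2 called 577 and 282 genes in these tests. Beside the interaction with day 7, the genes with the smallest p were Nab1, Igsf23, Lbh, Fasn and Nup107, none of which passed. That count of 0 against day 7 is from the fit of the 18 colon libraries, and it was 2 without KO replicate 1 and 2 without both libraries high in squamous markers. Sex and genotype were also mixed within the untreated and day 7 groups, and the part of sex in these differences was not tested.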

How the data were processed

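Mouse RNA-seq of washed colon gave 1 table per library, in which the authors deposited RSEM expected counts and TPM per gene. Alignment with STAR 2.7.6a and counting with RSEM 1.3.1 on GRCm38 are per the submitters' processing notes; strandedness is stated in no source used here, so overlapping and antisense genes are uncertain. Of 55487 gene IDs, 55227 matched a symbol of GENCODE M21. Expected counts were rounded, and genes were kept by edgeR's filterByExpr (minimum count 10, minimum total 15). The 18 colon libraries of 6 groups were fitted together without covariates in edgeR 4.0.16 (R 4.3.3, limma 3.58.1; TMM, robust quasi-likelihood F test, Benjamini-Hochberg, threshold 0.05), which shares the estimate of spread. DESeq2 1.42.0 was an alternative. TPM served only for Axin1, where KO was 25.3% of WT. No replicate check of animals can be made from the labels, so p-values measure only the spread between libraries.

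The members and 34 gene lists were chosen with earlier results of these data known, and 3 further lists (sterol synthesis, Hoxa, clock) after their values were seen. Genes are named by rule: general genes, in each direction the 15 largest changes with at least 2 CPM in the higher group and no overlap, the 10 smallest p, up to 4 members per list, and the 5 smallest p of each interaction. Other list members named were chosen after their values were seen. The lists share genes, Csf3r, Csf1r, Cxcr2, Mmp8, Mmp9, Cxcl9, Cxcl10 and Nos2 among them, so their counts are not separate. Libraries of 1 group differed by more than sampling noise (chi-square per gene 17.2 to 40.1 in KO and 69.6 to 89.7 in WT), so they were counted as separate libraries; whether they came from separate mice was not tested. On simulated counts for KO against WT at day 13 with 17893 genes, 39% of 100 genes changed by 1 on the log2 scale and 89% of 100 changed by 2 were called, with 6 false calls among 134. The simulation drew each gene independently around its group mean. It thus held no library that stood apart over many genes, as some day 13 libraries did, and these rates may not carry over to the data. Alternatives were another normalization, filters, tool, a Y-linked covariate, other sets of libraries and leaving out each day 13 library. Some genes that passed are not reported here.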

Additional observations from a re-analysis of the deposited data

Results flagged for a closer look

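In 2 genes the genotype difference at day 13 differed from that in untreated colon in edgeR's test of the difference itself. For Gzmb, the granule protease of cytotoxic lymphocytes, the difference of the log2 changes was -8.93 (adjusted p = 0.0491). It had 0.186, 0.176 and 0.224 CPM in KO at day 13, against 6.41, 0.845 and 2.89 CPM in WT, and in untreated colon 1.02, 0.284 and 2.78 CPM in KO, against 0.0420, 0 and 0.0868 CPM in WT. Untreated WT and KO at day 13 thus rested on few reads, and the size of this difference is limited by depth. The highest untreated KO value came from replicate 3, and this difference was not refitted without that library. For Gm45104, a predicted gene on chromosome 7, the difference of the log2 changes was 4.60, with 16.99, 15.3 and 12.9 CPM in KO at day 13, against 0.970, 1.01 and 2.10 CPM in WT, and 2.78, 2.49 and 0.722 CPM in untreated KO, against 5.30, 3.33 and 4.47 CPM in untreated WT. Y-linked expression was found in 0 of 3 KO and 3 of 3 WT libraries at day 13 and in 3 of 3 KO and 2 of 3 WT libraries in untreated colon, so genotype and sex cannot be told apart at day 13, and the part of sex in these differences was not tested. Of 13 alternatives Gzmb passed in 6 and Gm45104 in 5.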

How the results depend on the processing

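The 455 calls at day 13 became 286 with no filter on low counts, 1337 with DESeq2, 1 with the Y-linked covariate, 4 without both libraries high in squamous markers, 14 with the 6 day 13 libraries alone and 1359 without untreated KO replicate 3 and WT day 7 replicate 2. Leaving out each day 13 library gave 1 to 1380, and every one of the 455 genes kept its sign in each alternative that tested it. The choice of genes largely fixes these signs. KO and WT libraries did not overlap in 117 of the 118 higher and 325 of the 337 lower genes. Leaving out libraries could hardly turn the sign of those genes, so the kept signs add no support to the calls. The difference from untreated colon, 2 calls, had 577 with DESeq2, 0 with the Y-linked covariate, 0 without both squamous libraries, 59 with all 24 libraries and 0 to 410 with 1 library left out. The difference from day 7, 0 calls and 2125 genes at an unadjusted p under 0.05, had 282 with DESeq2, 2 without both squamous libraries and 0 to 2 with 1 library left out. The cause of these shifts was not tested. Fits with fewer libraries have fewer degrees of freedom, and the calls rose in some of them and fell in others. The Axin1 percentage stayed at 25.3% to 31.2% in all alternatives run. No paired analysis was possible because the replicate numbers follow accession order and pair no mice. Genes with few counts in KO, such as Il6 and Ccl3, are limited by depth.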
